A study of Mus musculus with 9 samples.

Results

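The AP-1 and immediate early genes described here are 10 genes, Jun, Junb, Jund, Fos, Fosb, Fosl2, Egr1, Egr2, Nr4a1 and Atf3, followed across 9 microarrays of mouse pro-B cells. They were found among 21164 genes named on the array as every probe that the array files name for one of these genes or for an older alias, which gave 12 probes of the 41174 on the array that are not controls. Of these 12 probes, 11 exceeded the background clearly on every array of some group and entered the tests, and they cover the 10 genes. Junb and Fosl2 have 2 probes each, and the probes of Jun, Fos and Egr2 are printed 10 times on every array.

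AP-1 is a dimer of basic leucine zipper proteins, a JUN protein paired with another JUN, a FOS protein or an ATF relative, and it binds a short palindromic DNA site. Immediate early genes are transcribed within minutes of a signal, without new protein synthesis, because kinases of the MAP kinase pathway act on factors such as SRF with its ELK partners and CREB that already sit at their promoters. Most of their messages are short lived, so that their level follows signalling at the moment of lysis. In B-lineage cells they respond to the pre-B cell and B cell receptors, and Nr4a1 is used widely as a reporter of antigen receptor signalling.

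The cells were a C57Bl/6 pro-B line transformed with the Abelson virus, A-MuLV, whose oncogene encodes an active tyrosine kinase. All 3 groups carried the genotype Ebf1fl/fl;RERTCre and received 2 µM 4-hydroxytamoxifen (4-OHT), which activates the Cre recombinase and deletes the floxed Ebf1, a transcription factor needed for the B lineage. EBF1ΔC cells carried the retroviral construct pmys-EBF1ΔC-IRES-GFP, which encodes EBF1 without its C-terminal domain, and EBF1wt cells carried pmys-EBF1wt-IRES-GFP, which encodes full-length EBF1. Tamoxifen was added to both 24 h after transduction, and the cells were sorted as GFP+ cells 5 days after that, and used after more than 2 further weeks in culture. Mock cells were mock-transduced, had no EBF1 construct, and were collected 4 days after tamoxifen, ahead of the cell death that follows the loss of EBF1. Each group had 3 arrays. The labels do not say whether the replicates were separate cultures or whether the transformed cells were 1 clone, so the p-values measure the spread between these samples, which may be technical. Any difference from Mock cannot be told apart from the time since tamoxifen, the sort, the retrovirus, the slide or the scan day, since the Mock arrays lay on slides and a scan day of their own.

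Signals are given as log2 of the spot intensity relative to the 75th percentile of the same array, so 0 is the level of that percentile and values of different probes are not comparable as amounts of RNA. Between 50.7% and 56.9% of spots were well above background on the 9 arrays. Ebf1 itself averaged 3.80 ± 0.06 in EBF1ΔC cells, 3.06 ± 0.17 in EBF1wt cells and 1.45 ± 0.28 in Mock cells (SD, n = 3 each), without overlap between groups. Its probe was not placed relative to the deleted part of the gene. The 13 pro-B markers were well above background on every array. Their summed linear signal, in multiples of the 75th percentile, was 1330 to 1446 on EBF1ΔC arrays, 1339 to 1467 on EBF1wt arrays and 475 to 484 on Mock arrays. The 10 mature B cell markers summed to 50.2 to 53.8 in EBF1ΔC cells, 34.1 to 39.5 in EBF1wt cells and 434 to 493.2 in Mock cells, and the 3 globins measured of 7 erythroid markers to 2.53 to 6.46, 3.38 to 6.19 and 423 to 484, in that order of groups. Of the other lists, 5 of 10 myeloid markers summed to 36.6 to 54.8, 36.9 to 39.6 and 64.2 to 65.7, 4 of 10 T and NK cell markers to 9.72 to 11.4, 2.73 to 5.51 and 5.21 to 6.00, and 3 of 7 stromal markers to 27.2 to 31.9, 24.4 to 30.1 and 19.5 to 24.2. Of the 10 myeloid, 10 T and NK cell, 7 erythroid and 7 stromal markers, 4, 3, 2 and 2 were well above background on all EBF1ΔC arrays, 5, 3, 2 and 1 on all EBF1wt arrays, and 4, 4, 3 and 2 on all Mock arrays. Cd4, Cd8a, Tcf7, Gata3, Thy1, Mpo, Elane, Cebpa, Alas2, Col1a1, Col3a1 and Pdgfrb were well above background on no array. Csf1r, Itgam, Cd3g, Nkg7, Gata1 and the mature B cell marker Fcer2a were so on no EBF1 array but on at least 1 Mock array. Klf1 was so on at least 1 array of each EBF1 group and on no Mock array. The part of the B cell and globin marker differences in the results below was not tested.

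Promoter sequence from the RefSeq promoter table (GRCm38.p6) is shown for 3 genes, Egr2, whose signal differed most from Mock, and Fosb and Nr4a1, which were called higher in EBF1wt cells than in Mock cells. Each window runs from 250 bases before the annotated start site to 50 after it. Capitals mark a CArG box, the DNA element bound by SRF, in Egr2, and a match to the EGR site GCGNGGGCG, bound by EGR1 and EGR2, in Fosb and Nr4a1.
Egr2 promoter (chr10:67537619-67537918, plus strand): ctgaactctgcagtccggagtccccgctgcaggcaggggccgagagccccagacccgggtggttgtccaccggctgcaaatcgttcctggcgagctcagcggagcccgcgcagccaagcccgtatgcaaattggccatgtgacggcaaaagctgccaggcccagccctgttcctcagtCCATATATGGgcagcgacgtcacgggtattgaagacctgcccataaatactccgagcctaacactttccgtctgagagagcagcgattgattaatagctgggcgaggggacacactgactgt
Fosb promoter (chr7:19309996-19310295, minus strand): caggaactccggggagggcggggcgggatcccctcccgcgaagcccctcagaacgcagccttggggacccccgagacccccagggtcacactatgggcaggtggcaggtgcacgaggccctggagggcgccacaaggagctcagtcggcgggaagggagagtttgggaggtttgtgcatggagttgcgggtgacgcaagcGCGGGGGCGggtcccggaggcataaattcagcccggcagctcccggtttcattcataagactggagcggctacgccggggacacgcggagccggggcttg
Nr4a1 promoter (chr15:101266596-101266895, plus strand): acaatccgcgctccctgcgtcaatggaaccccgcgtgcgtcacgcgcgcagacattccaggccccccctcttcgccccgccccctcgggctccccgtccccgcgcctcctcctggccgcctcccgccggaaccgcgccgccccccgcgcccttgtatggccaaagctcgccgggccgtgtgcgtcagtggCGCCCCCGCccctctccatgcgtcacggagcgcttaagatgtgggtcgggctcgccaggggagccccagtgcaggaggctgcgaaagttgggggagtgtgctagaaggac
The CArG box of Egr2 lies at -72 to -63 from the start site shown, and 4 of the 5 annotated Egr2 start sites have such a box in their window, the match CCATATATGG in 3 overlapping windows and CCTTTTTTGG in another. A CArG box is held by 1.63% of the 32851 promoter windows in the table. The EGR site lies at -50 to -42 in Fosb and, on the opposite strand, at -60 to -52 in Nr4a1, and Fosl2 has the same match, GCGGGGGCG, at -79 to -71. That site is held by 5.55% of windows. Windows were read for 9 of the 10 genes, leaving out Egr1, and searched on both strands. The AP-1 site TGANTCA (7.81% of windows), the cAMP response element TGACGTCA (1.79%) and the EBF1 palindrome, TCCC and GGGA with 2 bases between them (0.904%), were found in no window of the 9, which says only that those letters are not in these windows.

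The tests compared EBF1ΔC with EBF1wt, EBF1wt with Mock, and EBF1ΔC with Mock in 1 limma model over all 22355 probes kept, with Benjamini-Hochberg adjustment over all of them. A gene was called where the adjusted p was under 0.05 and the change 2-fold or more, by its brighter probe where it has more than 1. Between EBF1ΔC and EBF1wt cells, 2 of the 10 genes were called, Jun higher and Nr4a1 lower, against 2.51% of all 12054 genes tested (1.29% higher and 1.22% lower). Between EBF1wt and Mock cells, 6 of the 10 were called, Fosb and Nr4a1 higher and Jun, Jund, Fosl2 and Egr2 lower, against 19.5% of all genes (6.6% higher and 12.9% lower). Fosl2 entered the tests through Mock alone, a filter that favours a lower value in EBF1wt cells, and 5 of the other 9 genes were called. Scaling to the median of each array left the count at 6, but as 5 higher and 1 lower, with Fos, Egr1 and Atf3 gained and Jun, Jund and Fosl2 lost. Between EBF1ΔC and Mock cells, 2 of the 10 were called, Atf3 higher and Egr2 lower, against 18.1% of all genes (6.25% higher and 11.9% lower), a share near that background. The groups did not overlap for 5, 8 and 6 of the 10 genes in these 3 comparisons, against 30.5%, 72.3% and 71.6% of all genes. The median log2 difference over the 10 genes was -0.20, 0.03 and -0.23, and over all genes -0.0059, 0.12 and 0.10. In RNA of whole cultures, fewer cells expressing a gene and less RNA per cell cannot be told apart. Comparisons that share the EBF1wt or the Mock arrays are not independent of each other.

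**Figure D1:**
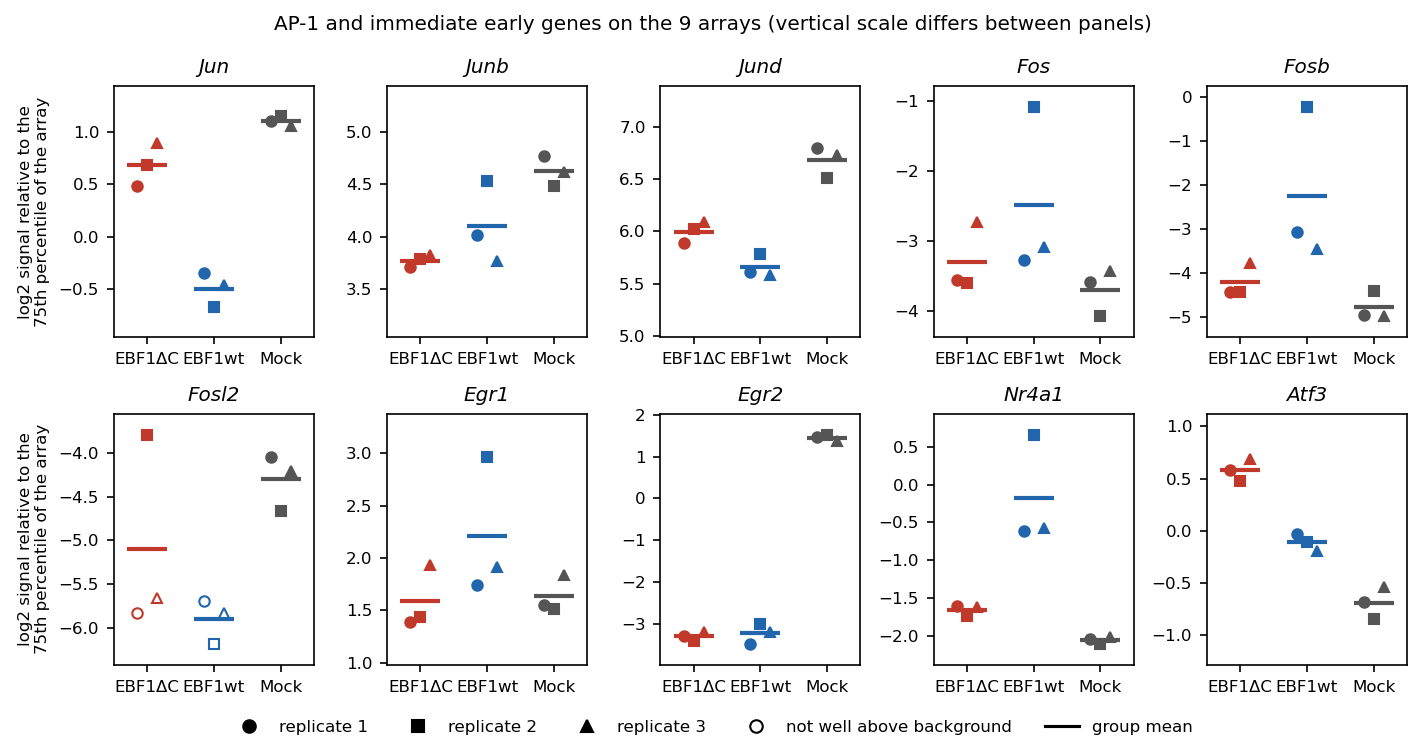
Log2 signal relative to the 75th percentile of the array (vertical axes, which differ in position and span between panels) for the 10 genes in EBF1ΔC, EBF1wt and Mock cells. Each point is 1 array, its shape gives the replicate number, open points were not well above background and lines are group means. Egr2 sits between -3.48 and -3.02 on all 6 EBF1 arrays and between 1.38 and 1.53 on the Mock arrays, and EBF1wt replicate 2 lies above the other EBF1wt arrays for Fos, Fosb, Egr1 and Nr4a1.

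Jun, which encodes the JUN protein common to most AP-1 dimers, was lowest in EBF1wt cells and stood in EBF1ΔC cells below, but near, its Mock level. Its log2 signal was 0.48, 0.69 and 0.89 on the EBF1ΔC arrays, -0.35, -0.67 and -0.46 on the EBF1wt arrays and 1.11, 1.15 and 1.05 on the Mock arrays. The 3 groups did not overlap, and the gap between the lowest EBF1ΔC and the highest EBF1wt array exceeded the spread within either group. The 10 spots of the Jun probe varied within an array by an SD of 0.07 to 0.11, with 9 spots used on EBF1wt replicate 2. Jun was 2.27-fold higher in EBF1ΔC than in EBF1wt cells (log2 difference 1.18, SE 0.12, limma adjusted p = 0.00183) and 3.03-fold lower in EBF1wt than in Mock cells (log2 difference -1.60, SE 0.12, adjusted p = 1.56e-05). EBF1ΔC cells differed from Mock cells by -0.42 (adjusted p = 0.0162), which is under 2-fold, and under median scaling that difference was 0.13. Median scaling also took EBF1wt minus Mock to -0.90 (adjusted p = 0.000249), under 2-fold, so that the call did not hold. Slides 4 and 5 each held 1 array of either EBF1 group. The EBF1ΔC minus EBF1wt difference in Jun was 1.56 on slide 4 and 0.95 on slide 5. Without both arrays of slide 4 it was 0.99 (adjusted p = 0.00453), just under 2-fold, so that the call did not hold. It was also lost with normexp and quantile normalization (0.96, adjusted p = 0.000149) and with slide as a fixed block (1.26, adjusted p = 0.101).

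Jund and Junb, the other JUN family genes, were highest in Mock cells. Jund, often the most steadily expressed JUN gene, had log2 signals of 5.89, 6.02 and 6.09 on the EBF1ΔC arrays, 5.61, 5.79 and 5.58 on the EBF1wt arrays and 6.80, 6.51 and 6.73 on the Mock arrays. No array of either EBF1 group reached the lowest Mock array. EBF1wt differed from Mock by -1.02 (SE 0.11, adjusted p = 7.42e-05), a 2.03-fold fall that lies at the threshold, and EBF1ΔC differed from Mock by -0.68 (adjusted p = 0.000658), which is under 2-fold. Leaving out EBF1wt replicate 1 or 3, or Mock replicate 1 or 3, gave differences between EBF1wt and Mock of -0.996, -0.98, -0.96 and -0.99, each short of 2-fold, and median scaling gave -0.32 (adjusted p = 0.147). EBF1ΔC and EBF1wt did not overlap for Jund, and their difference of 0.34 did not pass the test (adjusted p = 0.115).

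Junb, a JUN protein that can restrain JUN at some targets, had log2 signals of 3.71, 3.78 and 3.82 on the EBF1ΔC arrays, 4.01, 4.53 and 3.76 on the EBF1wt arrays and 4.77, 4.48 and 4.62 on the Mock arrays. EBF1wt overlapped both other groups, and EBF1ΔC lay wholly below Mock. The EBF1ΔC minus Mock difference was -0.85 (adjusted p = 0.0032), 1.81-fold and so not called, and the second Junb probe gave -0.66 (adjusted p = 0.0126). It was called at -1.04 with normexp and quantile normalization, -1.06 with quantile normalization alone and -1.05 in the authors' values (adjusted p = 0.000277, 0.000889 and 0.00054). EBF1wt minus Mock was -0.52 (adjusted p = 0.0305), and it turned to 0.18 under median scaling. EBF1ΔC minus EBF1wt was -0.33 (adjusted p = 0.335) with the brighter probe and -0.18 (adjusted p = 0.634) with the other. The 2 Junb probes overlap on the transcript and so share sequence.

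The FOS genes encode the partners that cannot pair with themselves and need a JUN protein. Fos had log2 signals of -3.57, -3.61 and -2.73 on the EBF1ΔC arrays, -3.28, -1.08 and -3.08 on the EBF1wt arrays and -3.59, -4.08 and -3.43 on the Mock arrays. EBF1wt replicate 2 stood apart from every other array, and EBF1ΔC replicate 3 was the next highest. All 10 Fos spots were well above background on each of these 2 arrays, with an SD between spots of 0.09 and 0.11, far under the gap to the other replicates. EBF1wt cells lay above Mock cells without overlap, but the difference of 1.22 (SE 0.54) was not called (adjusted p = 0.0754), and it was 0.52 (adjusted p = 0.155) without EBF1wt replicate 2. It was called under quantile normalization (1.73, adjusted p = 0.0186), under median scaling (1.92, adjusted p = 0.00288) and without EBF1wt replicate 1 (1.62, adjusted p = 0.0356). EBF1ΔC minus EBF1wt was -0.82 (adjusted p = 0.44) with all arrays and -0.12 (adjusted p = 0.898) without that replicate.

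Fosb, which like Fos is induced rapidly by serum and receptor signals, was highest in EBF1wt cells. Its log2 signal was -4.43, -4.41 and -3.78 on the EBF1ΔC arrays, -3.06, -0.22 and -3.45 on the EBF1wt arrays and -4.95, -4.40 and -4.98 on the Mock arrays. All EBF1wt arrays lay above every array of the other groups, while EBF1ΔC and Mock overlapped. EBF1wt exceeded Mock by 2.53 (SE 0.73, adjusted p = 0.0141), or 5.79-fold, and by 1.52 (adjusted p = 0.00158) without EBF1wt replicate 2, so the call held although the size depends on that array. The size also depends on the processing, at 1.22 with normexp and quantile normalization, 1.13 in the authors' values and 3.24 under median scaling, and the call held in each. EBF1ΔC minus EBF1wt was -1.96 (SE 0.73, adjusted p = 0.169) and -0.95 (adjusted p = 0.107) without EBF1wt replicate 2. Without both arrays of slide 4 it was -1.17 and passed (adjusted p = 0.0354). On slide 4 the difference was -3.55, and on slide 5 it was -0.98.

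Fosl2, the FOS relative also called FRA-2, was near the detection limit. Its brighter probe had log2 signals of -5.84, -3.79 and -5.66 on the EBF1ΔC arrays, -5.70, -6.19 and -5.83 on the EBF1wt arrays and -4.04, -4.67 and -4.20 on the Mock arrays. It was well above background on EBF1ΔC replicate 2 and on the 3 Mock arrays only, and the gene entered the tests through Mock alone. Fosl2 was at least 2.00-fold lower in EBF1wt than in Mock cells (adjusted p = 0.0175), a bound that sets the EBF1wt arrays at their lowest signal well above background. The measured difference of -1.60 lost its call without EBF1wt replicate 2 (-1.46, adjusted p = 0.0501), without Mock replicate 1 (-1.47, adjusted p = 0.0538) and without Mock replicate 3 (-1.55, adjusted p = 0.0515), and was -0.07 in the authors' values. It was lost as well with quantile normalization (-0.90, adjusted p = 0.166) and under median scaling (-0.89, adjusted p = 0.0908). EBF1ΔC minus Mock was -0.79 (adjusted p = 0.179), or -1.45 (adjusted p = 0.0011) without EBF1ΔC replicate 2. The second Fosl2 probe, nearer the 3′ end of the transcript, never rose well above background and was not tested.

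Egr2 showed the widest difference of the 10 genes from Mock. It encodes a zinc finger factor induced by receptor signals in lymphocytes. Its log2 signal was -3.30, -3.41 and -3.20 on the EBF1ΔC arrays, -3.48, -3.02 and -3.19 on the EBF1wt arrays and 1.47, 1.53 and 1.38 on the Mock arrays. The EBF1 groups overlapped and both lay far below Mock, and all 10 Egr2 spots were well above background on every array. Egr2 was 27.1-fold lower in EBF1ΔC than in Mock cells (log2 difference -4.76, SE 0.13, adjusted p = 1.05e-07) and 25.8-fold lower in EBF1wt than in Mock cells (-4.69, SE 0.13, adjusted p = 8.18e-08). These calls held in each of the 25 alternatives, where the differences ran from -4.82 to -3.24 and from -4.80 to -3.21. EBF1ΔC minus EBF1wt was -0.07 (SE 0.13, adjusted p = 0.79). The probe lies at chr10:67004758-67004817 of mm9, near position 2786 of the transcript.

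Egr1, the EGR factor that responds earliest in most cells, was not called in any of the 3 comparisons. Its log2 signal was 1.39, 1.44 and 1.93 on the EBF1ΔC arrays, 1.75, 2.97 and 1.92 on the EBF1wt arrays and 1.55, 1.52 and 1.84 on the Mock arrays. The 3 groups overlapped, and EBF1wt replicate 2 was again the highest array. EBF1ΔC minus EBF1wt was -0.62 (SE 0.30, adjusted p = 0.288), EBF1wt minus Mock 0.57 (adjusted p = 0.124) and EBF1ΔC minus Mock -0.05 (adjusted p = 0.896). Without EBF1wt replicate 2 the first 2 differences were -0.25 (adjusted p = 0.588) and 0.20 (adjusted p = 0.373). Under median scaling EBF1wt was called above Mock, at 1.28 (adjusted p = 0.00176).

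Nr4a1, the orphan nuclear receptor NUR77, was highest in EBF1wt cells. Its log2 signal was -1.61, -1.74 and -1.61 on the EBF1ΔC arrays, -0.62, 0.66 and -0.58 on the EBF1wt arrays and -2.04, -2.11 and -2.01 on the Mock arrays. No groups overlapped, and the EBF1ΔC arrays lay between the others and nearer to Mock. Nr4a1 was 2.78-fold lower in EBF1ΔC than in EBF1wt cells (log2 difference -1.48, SE 0.30, adjusted p = 0.0278) and 3.67-fold higher in EBF1wt than in Mock cells (1.87, SE 0.30, adjusted p = 0.000693). EBF1ΔC minus Mock was 0.40 (adjusted p = 0.266). Without EBF1wt replicate 2 the EBF1ΔC minus EBF1wt difference was smaller, -1.06, with an adjusted p of 0.000942, and the EBF1wt minus Mock difference was 1.45 (adjusted p = 1.08e-05). The EBF1ΔC minus EBF1wt difference was -2.27 on slide 4 and -1.03 on slide 5. Its call was lost when any EBF1ΔC array was left out (adjusted p = 0.081, 0.0933 and 0.0628 without replicates 1, 2 and 3) and without Mock replicate 2 (0.0523) or 3 (0.0554). It was also lost with slide as a fixed block (-1.65, adjusted p = 0.156), and without a filter (adjusted p = 0.0844) or in a fit of the EBF1 groups alone (adjusted p = 0.0965).

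Atf3, a stress-responsive member of the ATF family that can pair with JUN proteins, was highest in EBF1ΔC cells and lowest in Mock cells. Its log2 signal was 0.58, 0.47 and 0.68 on the EBF1ΔC arrays, -0.03, -0.11 and -0.20 on the EBF1wt arrays and -0.68, -0.84 and -0.54 on the Mock arrays. The groups did not overlap, and the gaps between them exceeded the spread within each. Atf3 was 2.41-fold higher in EBF1ΔC than in Mock cells (log2 difference 1.27, SE 0.10, adjusted p = 2.16e-05), and the call held in each of the 25 alternatives. EBF1ΔC exceeded EBF1wt by 0.69 (SE 0.10, adjusted p = 0.00863), with 0.79 on slide 4 and 0.78 on slide 5, and EBF1wt exceeded Mock by 0.58 (adjusted p = 0.00128), both under 2-fold and so not called. Under median scaling EBF1wt was called above Mock, at 1.28 (adjusted p = 4.46e-05).

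**Figure D2:**
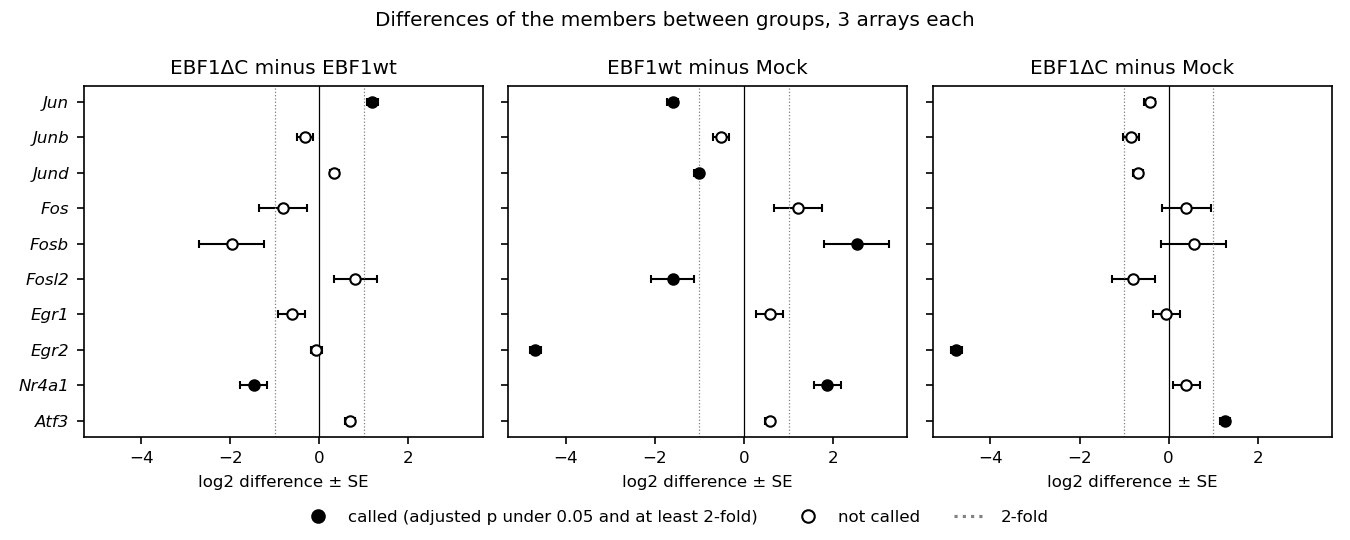
Log2 differences with their SE from the limma model (horizontal axis) for the 10 genes in EBF1ΔC minus EBF1wt, EBF1wt minus Mock and EBF1ΔC minus Mock, 3 arrays per group. Filled points were called, dotted lines mark 2-fold, and the Fosl2 points include groups not well above background. Egr2 lies at -4.76 and -4.69 in the comparisons with Mock and at -0.07 between the EBF1 groups, and Fosb has the widest SE, 0.73.

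The array EBF1wt replicate 2 held much of the spread of the FOS, EGR1 and NR4A1 genes. Set against the mean of the other 2 EBF1wt arrays, it was higher by 3.03 for Fosb, 2.10 for Fos, 1.26 for Nr4a1 and 1.13 for Egr1 on the log2 scale. Deviations of that size in either direction were found on this array for 0.233%, 0.94%, 3.09% and 3.71% of all genes. In all, 4 of the 10 genes were higher there by 1 or more, against 1.36% of all genes, and Junb by 0.65. Jun was lower on that array by 0.27 and Fosl2 by 0.42, and Jund, Egr2 and Atf3 lay within 0.32 of the other replicates. EBF1ΔC replicate 3, on the same slide, was the highest of its group for Fos (0.86 above the other replicates), Fosb (0.64) and Egr1 (0.52). These 2 arrays also had the lowest array weights in limma, 0.419 and 0.521. The part of the slide or of the handling of the cells in these values was not tested.

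Other rapidly induced genes lay on either side of their replicates on EBF1wt replicate 2. Named after their values were seen, Hspa1b was higher there by 1.43, Nr4a2 by 1.03, Myc by 0.88, Zfp36 by 0.82, Maff by 0.77 and Ier2 by 0.72. Trib1, Per1, Zfp36l2 and Batf were higher by 0.66, 0.64, 0.58 and 0.54. Nab2 deviated by -1.17, Sgk1 by -0.55, Btg1 by -0.32 and Csrnp1 by -0.30. Lower genes were thus named down to a smaller deviation than higher ones. Sik1 was well above background on that EBF1wt array alone. Their medians over whole lists were near 0. They were 0.09 over 26 other immediate early genes, 0.10 over 7 other AP-1 family genes, 0.01 over 3 EGR and NR4A relatives and corepressors and 0.07 over 9 heat shock genes. The mature B cell markers also stood high on that array, with 4 of 10 higher by 1 or more and a median of 0.36. The medians of the pro-B, T and NK cell, erythroid and stromal markers measured were -0.19, -0.48, -0.54 and -0.26, and that of the myeloid markers 0.00.

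**Figure D3:**
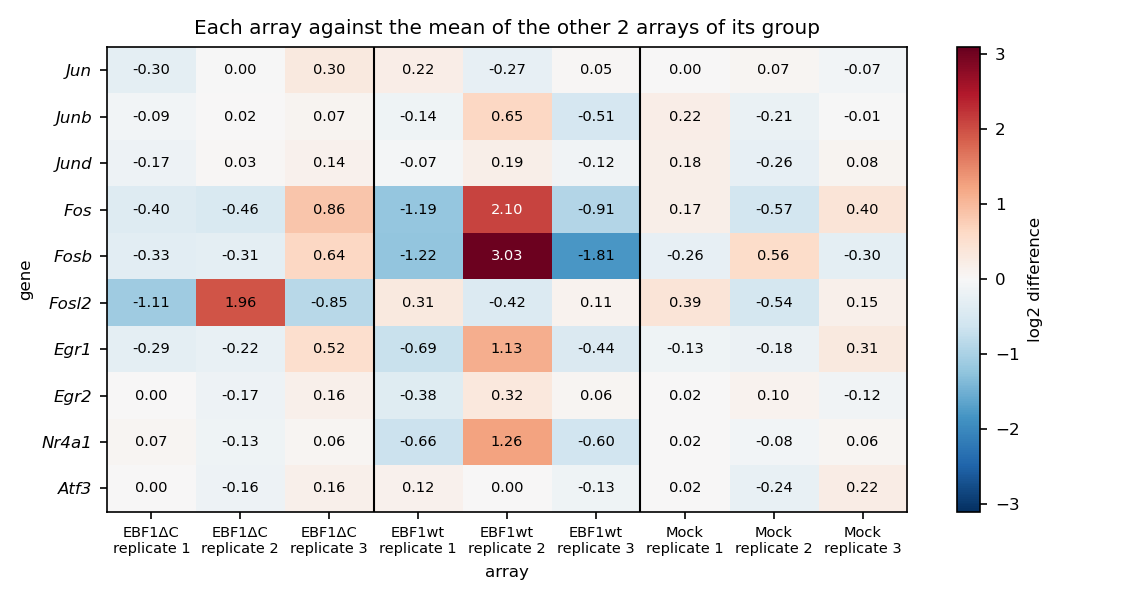
Log2 signal of each array minus the mean of the other 2 arrays of its group (colour and printed value) for the 10 genes (rows) on the 9 arrays (columns, EBF1ΔC, EBF1wt and Mock from left to right). EBF1wt replicate 2 holds the high values for Fosb (3.03), Fos (2.10), Nr4a1 (1.26) and Egr1 (1.13), and EBF1ΔC replicate 2 the high value for Fosl2 (1.96).

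The other genes of these families and of the pathway upstream of them were counted in fixed lists. Of 10 other AP-1 family bZIP genes, 7 had a probe that entered the tests. Between EBF1ΔC and EBF1wt 0 of the 7 were called by limma (3 at an unadjusted p under 0.05), and 3 were called against Mock in each EBF1 group. Of all genes, 2.51% were called between the EBF1 groups, 18.1% between EBF1ΔC and Mock and 19.5% between EBF1wt and Mock. Jdp2, a repressor that pairs with JUN proteins, was higher than in Mock by 1.98 in EBF1ΔC cells (adjusted p = 9.89e-05) and by 1.30 in EBF1wt cells (adjusted p = 0.000899). It was measured on 2 of 3 Mock arrays, since Mock replicate 2, at -4.88, was not well above background. Maff, a small MAF protein, had a log2 difference from Mock of -1.98 in EBF1ΔC cells (adjusted p = 0.000105) and of -1.43 in EBF1wt cells (adjusted p = 0.000567). Batf, a lymphoid AP-1 factor without a transactivation domain, was 2.82-fold lower in EBF1ΔC cells (adjusted p = 8.07e-05) and 2.53-fold lower in EBF1wt cells (adjusted p = 0.000142). Under median scaling the Batf differences from Mock were -0.95 and -0.64, under 2-fold, so that neither call held. The list medians were -0.07 for EBF1ΔC minus EBF1wt, 0.14 for EBF1wt minus Mock and 0.06 for EBF1ΔC minus Mock.

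Of the 6 EGR and NR4A relatives and corepressors, Egr3, Egr4 and Nr4a3 did not enter the tests, and 0 of the other 3 were called by limma between EBF1ΔC and EBF1wt (2 at an unadjusted p under 0.05). Nr4a2, the receptor NURR1, had log2 signals of -3.14, -3.19 and -2.55 on the EBF1ΔC arrays, -2.60, -1.41 and -2.28 on the EBF1wt arrays and -1.32, -1.40 and -1.08 on the Mock arrays. It was lowest in EBF1ΔC cells, which lay below Mock by 3.23-fold (log2 difference -1.69, SE 0.30, adjusted p = 0.00121), while its family member Nr4a1 was not lower than in Mock. Nab2, a corepressor of EGR factors, was 2.46-fold lower in EBF1wt than in Mock cells (log2 difference -1.30, SE 0.31, adjusted p = 0.00591). Without EBF1wt replicate 2 the Nab2 difference was -0.91, under 2-fold. Nr4a2 and Nab2 differed between EBF1ΔC and EBF1wt by -0.86 (adjusted p = 0.142) and 0.34 (adjusted p = 0.588).

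Among 32 other immediate early genes, 26 entered the tests. In EBF1ΔC against EBF1wt cells 2 were called, both lower, against 2.51% of all genes, with a list median of -0.16. Myc, the growth regulator, had log2 signals of 3.20, 3.39 and 3.16 on the EBF1ΔC arrays, 4.48, 5.32 and 4.41 on the EBF1wt arrays and 4.17, 4.04 and 3.92 on the Mock arrays. EBF1ΔC lay below both other groups, by 2.81-fold against EBF1wt (log2 difference -1.49, SE 0.22, adjusted p = 0.00871), and the 2 other Myc probes gave -1.47 and -1.45, both called. Sgk1, a kinase of the AKT relatives, had log2 signals of -1.13, -1.16 and -0.40 on the EBF1ΔC arrays, 0.73, 0.18 and 0.73 on the EBF1wt arrays and -3.47, -3.27 and -3.52 on the Mock arrays. Its 3 groups did not overlap, with EBF1ΔC 2.72-fold below EBF1wt (-1.44, SE 0.23, adjusted p = 0.0108), and EBF1wt 15.7-fold above Mock (3.97, SE 0.23, adjusted p = 3.42e-06).

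Against Mock, 9 of the 26 were called in each EBF1 group, 4 higher and 5 lower. Of all genes, 18.1% were called in EBF1ΔC and 19.5% in EBF1wt cells. The list medians were -0.10 in EBF1wt and 0.02 in EBF1ΔC cells. Ier3, an apoptosis regulator, was 7.08-fold lower in EBF1ΔC and 10.6-fold lower in EBF1wt cells, at log2 differences of -2.82 (adjusted p = 1.58e-05) and -3.41 (adjusted p = 5.80e-06). Phlda1 was 4.63-fold and 4.15-fold lower, at -2.21 (adjusted p = 6.14e-06) and -2.05 (adjusted p = 8.44e-06). Btg1, an antiproliferative gene, was 5.22-fold lower in EBF1wt cells (-2.38, adjusted p = 1.21e-06). It was low in EBF1ΔC cells too, with log2 signals of 4.77, 4.73 and 4.96 against 6.46, 6.54 and 6.54 on the Mock arrays. Its other probe was called in both groups, at -1.58 in EBF1ΔC and -2.11 in EBF1wt cells. Sik1, a kinase induced by cAMP, was at least 5.38-fold lower in EBF1ΔC cells (adjusted p = 0.000381), where 0 of 3 arrays read it well above background. It entered the tests through Mock alone, which favours a lower value in the EBF1 groups.

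Of 25 genes of the MAP kinase and SRF pathway, 24 entered the tests. In EBF1ΔC against EBF1wt cells only Rasgrp1, which loads RAS with GTP, was called, higher by 1.06 (SE 0.22, adjusted p = 0.0302), and its other probe gave 0.43 (adjusted p = 0.579). That call was lost when any EBF1ΔC array (adjusted p = 0.0716, 0.105 and 0.0632) or any Mock array (0.0517, 0.0564 and 0.0587) was left out, and without EBF1wt replicate 2 (0.78, adjusted p = 0.0104). Against Mock 4 were called in each EBF1 group, near the share of all genes (18.1% in EBF1ΔC and 19.5% in EBF1wt cells). Elk3, an SRF partner, was higher by 1.72 in EBF1ΔC cells (adjusted p = 1.59e-05) and by 1.43 in EBF1wt cells (adjusted p = 3.89e-05). Rasgrp3, a relative of Rasgrp1, was at least 6.14-fold lower in EBF1ΔC cells (adjusted p = 1.98e-05) and at least 5.78-fold lower in EBF1wt cells (adjusted p = 6.15e-06). It too entered through Mock alone, and no EBF1 array read it well above background. Rps6ka1 and Mapk8 were called lower by their brighter probe, at -2.34 and -1.18 in EBF1ΔC cells and -2.26 and -1.27 in EBF1wt cells. Their other probes disagreed, with 0.27 and 0.51 in EBF1ΔC cells and 0.15 and 0.34 in EBF1wt cells, so no direction is given for these 2 genes. The list medians, 0.08 in EBF1ΔC and 0.10 in EBF1wt cells against Mock, were close to those of all genes.

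Of 10 feedback inhibitors of MAP kinase signalling, 9 were on the array and entered the tests. By limma 0 were called between EBF1ΔC and EBF1wt (3 at an unadjusted p under 0.05). Against Mock, 5 were called in EBF1ΔC cells (4 higher and 1 lower) and 4 in EBF1wt cells (3 higher and 1 lower). Of all genes, 18.1% and 19.5% were called. Spry2, Dusp1 and Dusp2, a Sprouty protein and 2 MAP kinase phosphatases, were higher than in Mock by 1.59, 1.56 and 1.07 in EBF1ΔC cells, and by 1.62, 1.19 and 1.29 in EBF1wt cells, with adjusted p-values of 1.36e-06 to 0.000131. Without EBF1ΔC replicate 1 Dusp2 stood at 0.99 in EBF1ΔC cells, just under 2-fold. With normexp and quantile normalization Dusp2 stood at 0.87 in EBF1ΔC cells and Dusp1 at 0.93 in EBF1wt cells, both under 2-fold. In the authors' values Dusp1 stood at 0.91 in EBF1wt cells. Spry1 was lower, at -1.45 (adjusted p = 2.25e-05) in EBF1ΔC and -1.21 (adjusted p = 5.45e-05) in EBF1wt cells. The list medians were 0.57 in EBF1ΔC and 0.48 in EBF1wt cells, above the 0.10 and 0.12 of all genes.

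A list of 10 heat shock genes stood for the stress response. By limma 0 were called between EBF1ΔC and EBF1wt (1 at an unadjusted p under 0.05), and against Mock 2 in each EBF1 group. That count is near the share of all genes called against Mock, 18.1% in EBF1ΔC and 19.5% in EBF1wt cells. The list medians against Mock, 0.45 in EBF1ΔC and 0.56 in EBF1wt cells, lay above the 0.10 and 0.12 of all genes. The summed linear signal of 9 of these genes was 400 to 433 on EBF1ΔC arrays, 402 to 454 on EBF1wt arrays and 242 to 276 on Mock arrays. Hspa8, the constitutive HSC70, was higher by 1.19 in EBF1ΔC cells (adjusted p = 0.000167) and by 1.07 in EBF1wt cells (adjusted p = 0.000291), or by 0.95 in EBF1wt cells without Mock replicate 1. Its other probe gave 0.86 and 0.83, under 2-fold. The inducible Hspa1a was at least 2.99-fold lower in EBF1ΔC (adjusted p = 0.00218) and at least 2.82-fold lower in EBF1wt cells (adjusted p = 0.000995). Hspa1a was read well above background on no EBF1 array and entered through Mock alone. It has a near-identical neighbour, Hspa1b, whose RNA its probe may also bind.

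**Figure D4:**
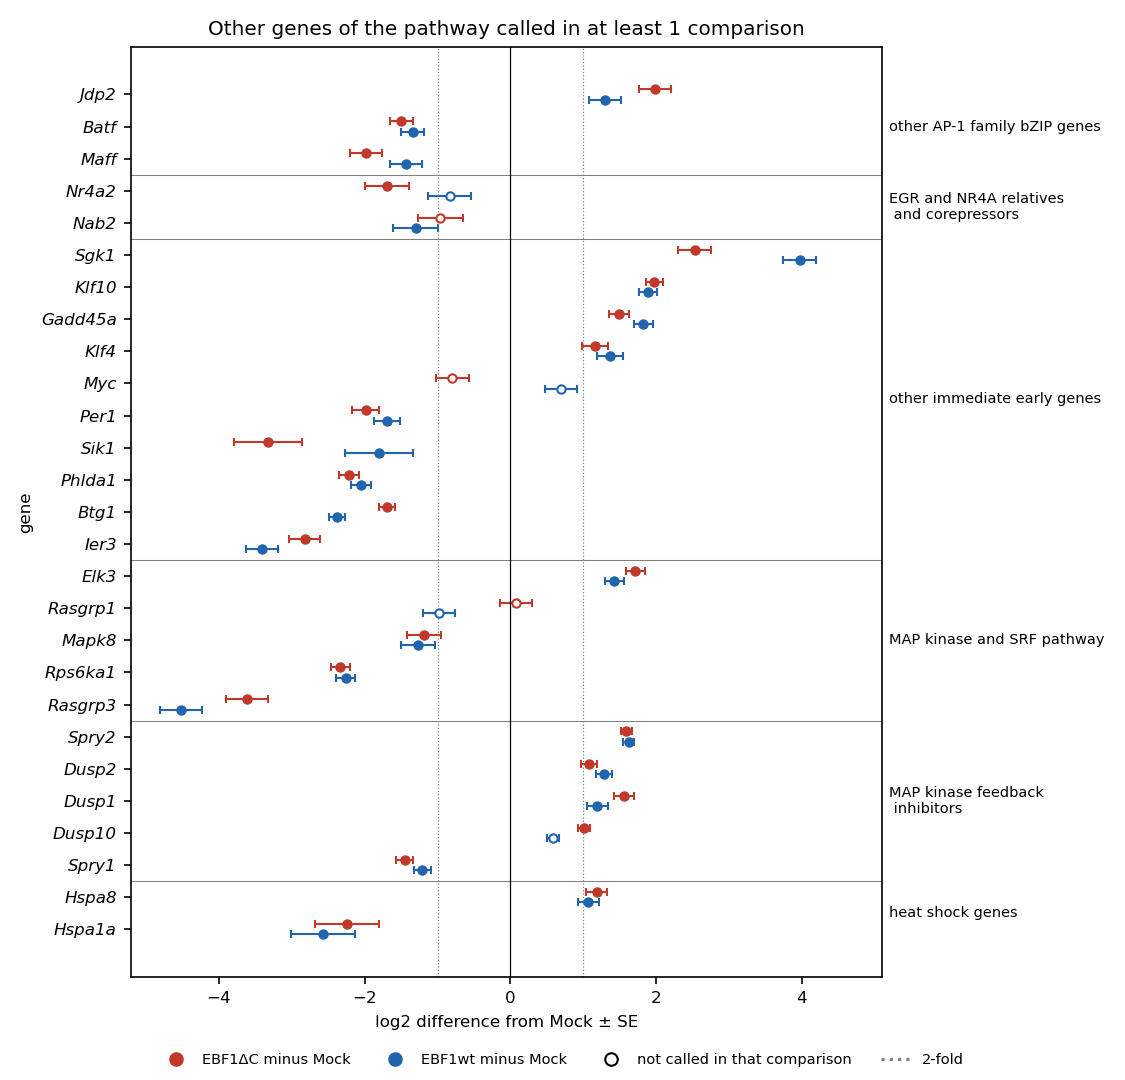
Log2 differences from Mock with their SE (horizontal axis) in EBF1ΔC and EBF1wt cells for genes of the 6 lists that were called in at least 1 of the 3 comparisons, grouped by list. Open points were not called in that comparison and dotted lines mark 2-fold. Sik1, Rasgrp3 and Hspa1a in EBF1ΔC cells, and Rasgrp3 and Hspa1a in EBF1wt cells, were not well above background, so their plotted fitted differences are no measured folds. Sgk1 lies at 2.53 in EBF1ΔC and 3.97 in EBF1wt cells.

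For each of the 7 genes called in a comparison, the 3 other genes with the most similar pattern over the 9 arrays were found by Pearson's r. The arrays fall into 3 groups that set much of each r, so these values largely describe the group pattern. For some genes an array that stood apart from its group enters r as well. Jun was closest to Pigp (0.996), Gbp2b (0.988) and Gbp4 (0.985), and Jund to Cd68 (0.990), Znfx1 (0.984) and Tpm4 (0.982). The genes closest to Egr2 included Papln and Jam2, each at 0.998 or above. On the EBF1 arrays these 2 genes read between -7.60 and -6.97. That is near the second Fosl2 probe, which was not well above background there and averaged -7.41 in EBF1ΔC and -7.24 in EBF1wt cells. Their r therefore mostly sets Mock against values near the floor. Nr4a1 was closest to Ide (0.993), Atp2b1 (0.984) and Ifnlr1 (0.979), and Fosb to Snx5 (0.981), Ppic (0.979) and Prrg1 (0.978). Atf3 was closest to Gna12 (0.980), Clba1 (0.979) and Sned1 (0.977), and Fosl2 to Rhobtb1 (0.961), Fmn1 (0.946) and Efs (0.945). Rhobtb1 read -1.72 on EBF1ΔC replicate 2, where Fosl2 was also high, against -4.14 and -4.34 on the other EBF1ΔC arrays. Ppic read 1.38 on EBF1wt replicate 2, where Fosb was also high, against -1.25 and -1.04 on the other EBF1wt arrays.

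The deposited files place the other probes, in mm9, within the transcripts as follows. The Jun probe lies at chr4:94715864-94715923, the Jund probe at chr8:73224436-73224495 and the Junb probes at chr8:87500881-87500940 and chr8:87500843-87500902. Fos was read at chr12:86817900-86817959, Fosb at chr7:19888477-19888536, Nr4a1 at chr15:101105071-101105130 and Atf3 at chr1:192994547-192994606. The brighter Fosl2 probe, at chr5:32455088-32455147, starts at position 738 of its transcript, and the other, at chr5:32459624-32459683, at position 5274. Each probe carries a transcript position in the files and is therefore exonic.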

How the data were processed

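Cy3-labelled RNA of the 9 samples had been hybridised to Agilent mouse arrays, 1 sample per array. The values used were the processed intensity of each spot, which per the file headers is background-subtracted and detrended by Agilent Feature Extraction 10.5.1.1 (the submitters' processing notes name 9.1) and was not normalized between arrays. The authors also deposited log2 values whose normalization is not stated. They were compared with log2 signal that was quantile-normalized after a constant was added to the intensities. The correlation was 0.996 to 0.997 per array, across probes, and the authors' values were used as an alternative. Quantile normalization alone, another alternative, added no constant. Groups were taken from the sample titles. For EBF1wt replicate 3, tamoxifen stands in the description but not in the source name.

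Control spots and spots marked as outliers (73 to 163 per array) were left out, log2 signals were set against the 75th percentile of their array, and spots of a probe were averaged. A probe was kept where at least 1 group was well above background on all 3 arrays. All 9 arrays were fitted together in limma 3.58.1 under R 4.3.3, 1 mean for each group, with 6 residual degrees of freedom and two-sided tests. Fold bounds set a group not well above background at the lowest signal well above background on each array. Of 41174 probes, 27479 were named through the RefSeq gene reference by accession, 5478 by symbol and 679 by synonym, 1262 were left under the name the files give, and 6276 have no gene name. The fit was tested on simulated data.

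The 10 genes, the lists and the tests were chosen with earlier results of these data known. The genes named are all probes of the 10, up to 4 called members of each list per comparison with the largest change (up to 2 values where none was called), and the 3 genes most similar in pattern to each called gene, of which 1 is not reported here. Alternatives were other background corrections, scalings, filters and thresholds, the authors' values, slide or replicate blocks, array weights, trended and robust moderation, other ways to join the probes of a gene, a fit of 2 groups alone, and each array left out in turn. Leaving out both arrays of slide 4 was added after the values were seen. The number of arrays limits the precision.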

Additional observations from a re-analysis of the deposited data

How the results depend on the processing

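The counts of the 10 genes called moved as follows. Between EBF1ΔC and EBF1wt (2) the count was 1 with normexp and quantile normalization, without a filter and in a fit of only these groups, and 0 with slide as a fixed block, which uses 2 slides. It stayed at 2 without both arrays of slide 4, but as Nr4a1 and Fosb, both lower. Between EBF1ΔC and Mock (2) it was 5 by adjusted p alone and 4 at 1.5-fold. Leaving out 1 array gave 1 to 2 between EBF1ΔC and EBF1wt, 2 to 3 between EBF1ΔC and Mock, and 4 to 6 between EBF1wt and Mock. There median scaling kept the total of 6 but made it 5 higher and 1 lower, in place of 2 higher and 4 lower, with Fos, Egr1 and Atf3 gained and Jun, Jund and Fosl2 lost.

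Over all probes, 445 were called between EBF1ΔC and EBF1wt, with 177 under normexp, 169 in the authors' values, 289 among probes above background on all 9 arrays, 93 with the slide block, 1249 by adjusted p alone, 854 at 1.5-fold, 259 in a fit of only these groups and 322 to 469 without 1 array. The same settings gave, for the 4987 between EBF1ΔC and Mock, 1857, 1802, 3102, 14458 by adjusted p alone, 9168 and 4645 to 5209, and for the 5252 between EBF1wt and Mock, 1801, 1745, 3225, 14954 by adjusted p alone, 9592 and 4835 to 5454. With 1 probe per gene these were 2186 and 2346, and with probes averaged per gene 2279 and 2416, since fewer features were tested. Median scaling gave 7709 (5520 higher) and 9903 (7925 higher), in place of 1351 and 1362 higher, and moved the median of all probes from 0.04 to 0.58 and 0.75.

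The replicate numbers gave no sign of pairing. Deviations from the group means correlated at -0.14 to 0.14 between same-numbered arrays and at -0.16 to 0.16 between differently numbered ones. With 3 arrays per group this cannot show that the samples were unpaired. With the replicate block 1 of the 10 genes was called between EBF1ΔC and EBF1wt, Nr4a1 standing at -1.48 with an adjusted p of 0.0573. Signal over background limits Fosl2, which in EBF1wt cells has only a bound. Normexp and the authors' values also took Nr4a2, Nab2, Jdp2, Maff, Rasgrp3, Hspa1a, Sik1 and, in EBF1wt cells, Dusp1 under 2-fold against Mock. Normexp did so for Dusp2 in EBF1ΔC cells. Causes of the changes not named here were not tested.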
